A study of Mus musculus with 14 samples.

Results

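Apolipoproteins are the proteins that package lipid for transport in the blood. The 9 genes described here, Apoa1, Apoa2, Apoa4, Apoa5, Apob, Apoc3, Apom, Apoh and Apof, lie outside the gene cluster that holds Apoe. They were taken by gene symbol from a liver expression table of 17552 genes. All 9 were found, and all 9 were among the 13291 genes with at least 100 counts over both groups, the minimum for every comparison below. The rule used the symbol alone and no measured value.

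The liver is the main source of most plasma apolipoproteins, and the small intestine is the other large one. APOB is the structural protein of very low density lipoprotein (VLDL), and APOA1 and APOA2 are the main proteins of high density lipoprotein (HDL). Other apolipoproteins such as APOC3 and APOA5 ride on these particles and act on lipoprotein lipase, the enzyme that clears triglyceride from them.

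The study asked how the liver transcriptome of Apoe-deficient mice responded to erythrodiol, a triterpene of the olive. Liver RNA of male Apoe-deficient C57BL/6 mice was sequenced as 7 control and 7 erythrodiol libraries, each made from the pooled RNA of mice of its group. Control mice ate a Western diet alone, and erythrodiol mice ate the same diet with erythrodiol added, for a dose that the study's methods give as 10 mg/kg of body weight. Both groups thus shared the Apoe deficiency, the Western diet, the strain and the sex. The labels give an age of 8 weeks and 8 weeks of diet, and the study's text gives a longer duration of the diet. Whether the labelled age is that at the start of the diet was not settled here.

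Each gene had 1 deposited expected count per group, with the reads of the 7 libraries added together. No gene value per library was used here, so gene values have no replicate error and no test was made. Intervals given below cover counting error only. In pooled bulk liver RNA, fewer cells of a type and less RNA per cell cannot be told apart.

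Control libraries held between 34856340 and 55244294 clean reads, and erythrodiol libraries between 47669656 and 48058606. Between 64.3% and 81.4% of control reads and between 73.0% and 76.1% of erythrodiol reads mapped to genes. The lowest control library, control replicate 3, also had the lowest share mapped to the genome, 76.7% against at least 92.0% in the other control libraries. Control replicate 3 entered the control sums, and its part in the ratios could not be separated. Between 41.6% and 69.1% of control reads and between 64.0% and 68.0% of erythrodiol reads mapped to a unique place of the genome. Control replicates 1, 2, 3 and 4 lay below every erythrodiol library in this measure, at 55.3%, 62.6%, 41.6% and 56.2%. Apoe, the gene deficient in both groups, still had counts, 9403 of them in the control and 8293 in the erythrodiol sum. The labels do not say which part of the gene is deleted, so these counts check nothing about the genotype. The tissue label was compared with 8 hepatocyte markers, Apoa1 among them, all of which were measured. Their summed level was 114129 CPM (counts per 1000000 counts of the group) in the control and 116737 with erythrodiol. Most of this sum was Alb, at 80551 and 77520 CPM. Of the 8 markers, 4 were at least 1.2-fold higher and 0 lower, where 33.7% of all genes tested were higher and 11.4% lower. Against genes of like length, a measure explained below, 1 of the 8 was higher and 0 lower.

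The sequences around the annotated starts of Apob, Apoa2 and Apoa5 are shown because Apob had the highest ratio between the groups, Apoa2 the highest level, and Apoa5 and Apoa2 the only new transcripts among the 9 genes. They are RefSeq promoters of build GRCm38.p6, 250 bases before to 50 after a start, on the gene's strand. Of the 9 genes, 7 had an entry, and Apoc3 and Apof did not. For Apob the start used is base 7977677 of chromosome 12, and GENCODE and the gene span given below start earlier, at 7977648 and 7977629. Positions from its start thus depend on the annotation. The window shown is chr12:7977427-7977726 on the plus strand, with the letters TATAAA in capitals.
Apob: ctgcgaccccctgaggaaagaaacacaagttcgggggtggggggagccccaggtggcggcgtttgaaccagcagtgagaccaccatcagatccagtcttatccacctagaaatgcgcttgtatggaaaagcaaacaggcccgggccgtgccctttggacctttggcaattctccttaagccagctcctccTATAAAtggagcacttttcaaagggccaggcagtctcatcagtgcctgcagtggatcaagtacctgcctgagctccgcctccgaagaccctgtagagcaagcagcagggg
Apoa2 has 2 starts among these promoters, and the window around the one at base 171225054 of chromosome 1 is chr1:171224804-171225103 on the plus strand. The capitals mark TGTTTAC, a sequence that FOXA factors of the liver are known to bind.
Apoa2: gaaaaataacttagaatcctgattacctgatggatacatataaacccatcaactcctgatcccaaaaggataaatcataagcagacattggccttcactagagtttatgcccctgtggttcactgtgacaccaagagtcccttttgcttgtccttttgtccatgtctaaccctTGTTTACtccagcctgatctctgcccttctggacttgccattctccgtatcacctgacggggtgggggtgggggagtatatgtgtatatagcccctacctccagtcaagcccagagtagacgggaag
Apoa5 also has 2 starts among these promoters, at bases 46268608 and 46268633, and is shown at chr9:46268358-46268657 on the plus strand, around the first. GENCODE gives further starts for transcripts of Apoa2 and Apoa5, so positions from their starts also depend on the annotation. The capitals mark the first exon of a new transcript described below.
Apoa5: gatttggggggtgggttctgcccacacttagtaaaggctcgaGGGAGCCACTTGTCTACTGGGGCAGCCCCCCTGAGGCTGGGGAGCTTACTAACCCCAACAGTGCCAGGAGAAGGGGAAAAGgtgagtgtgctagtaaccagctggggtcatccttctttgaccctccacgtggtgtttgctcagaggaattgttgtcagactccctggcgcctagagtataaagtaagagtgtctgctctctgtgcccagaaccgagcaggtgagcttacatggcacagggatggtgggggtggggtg

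Short motifs were searched on both strands of all 32851 promoters of that length. TATAAA was found in 13.6% of them. Among the 9 genes it began at position -31 from the Apoa5 start shown and -56 from its other start. It began at -60 from the Apob start used here and -212 from the Apoa2 start shown. TGTTTAC was found in 3.65% of promoters, at -77 from the Apoa2 start shown and -71 from that of Apoh. CACGTG, an E-box, was found in 7.15% of promoters and lay at -82 from the Apoa5 start shown and -107 from its other start. AGGTCA, the core letters read by many nuclear receptors, was found in 16.3% of promoters and lay on the opposite strand at -215 from the start of Apoh and -238 from the other start of Apoa2. CAAAGTCCA, a sequence bound by HNF4, was found in 0.475% of promoters and in 0 of the windows of these genes. A match describes letters in the window and says nothing of binding in these livers.

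Levels were compared between genes per length, as TPM of the group sum, which is the count per 1000 bases of gene length, scaled so that all genes of a group sum to 1000000. Apoa2 and Apoa1 were the most abundant of the 9 mRNAs in both groups. Apoa2 stood at 16044 TPM in the control and 16963 with erythrodiol, and Apoa1 at 10901 and 13355 TPM. Among all genes of the table, Apoa2 ranked 7 in the control and 5 with erythrodiol, and Apoa1 ranked 11 and 7. Apoc3 and Apoh followed at 2716 and 2693 TPM in the control. Apoa5 had 1002 TPM, Apob 656, Apoa4 529, Apof 389 and Apom 246. With erythrodiol the same order of the 9 genes was seen. Apoc3 and Apoh were neighbours whose control levels differed by a factor of 1.01, and with erythrodiol by 1.12, at 3059 and 2743 TPM. Without values per library, no spread exists to say which neighbours in the order differ.

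**Figure D1:**
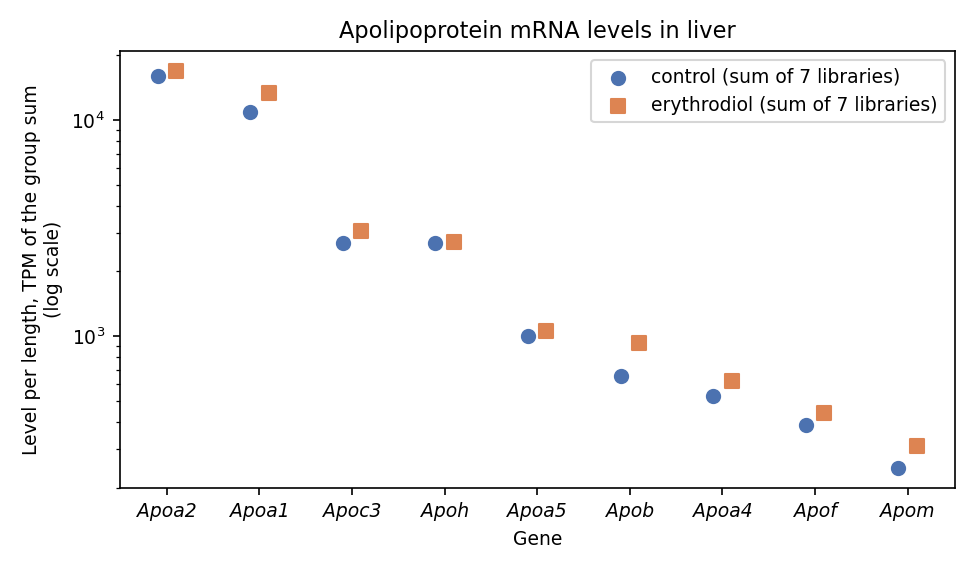
Level of the 9 apolipoprotein mRNAs in liver, in TPM of the group sum on a log axis, for control (circles) and erythrodiol (squares), each the sum of 7 libraries. Apoa2 and Apoa1 lie above 10000 TPM in both groups, and Apom lies lowest at 246 and 310 TPM. Each point is 1 pooled value and has no error bar.

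The 9 genes held 2.23% of all counts in the control and 2.41% with erythrodiol. Of their summed level, Apoa2 made up 45.6% in the control and 43.0% with erythrodiol, and Apoa1 31.0% and 33.8%. Apob, with the longest mRNA of the 9 at 13913 bases, made up 1.87% and 2.36% of that level, but it held 682836 and 884465 counts, similar in number to Apoa1 and Apoa2. The level ratio of Apoa1 to Apoa2 was 0.679 in the control and 0.787 with erythrodiol. That of Apoa1 to Apob was 16.6 and 14.3, and that of Apoa2 to Apob 24.4 and 18.2. All 3 of these comparisons turned direction when each gene was first set against genes of like length, as described below. On the log2 scale Apoa1 minus Apoa2 went from 0.21 to -0.13, Apoa1 minus Apob from -0.21 to 0.25, and Apoa2 minus Apob from -0.42 to 0.38.

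The ratio of erythrodiol to control was taken from counts scaled by the total of each group and is given as log2. Of the 9 genes, only Apob was at least 1.2-fold higher with erythrodiol, and 0 were at least 1.2-fold lower. Over all genes tested, 33.7% were at least 1.2-fold higher and 11.4% at least 1.2-fold lower, and with all genes centred on their median these shares were 10.9% and 20.2%. At the limit of 2-fold that the study used, 0 of the 9 were higher and 0 lower, where 0.218% of all genes tested were higher and 0.549% lower. The median log2 ratio was 0.04 for the 9 genes and 0.16 for all genes tested. A ratio above 0 was found for 6 of the 9 genes and for 71.2% of all genes tested.

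The sign of these ratios depended on the scaling. Apob and Apom lay above 0 under the scaling by totals and under all 8 alternatives. Apoa2, Apoa5 and Apoh lay below 0 under all of these except totals per length, the scaling of the TPM levels, under which all 9 genes lay above 0. Apoa1, Apoa4, Apoc3 and Apof lay above 0 under the scaling by totals and below 0 under 4 or 5 of the alternatives. Relative to the median of all genes tested, Apob was higher by 0.19 and Apom by 0.02 on the log2 scale, and the other 7 were lower, from -0.29 for Apoh to -0.02 for Apoa1.

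The ratio also moved with gene length over all genes. Its median was -0.61 among the 81 genes of up to 500 bases, -0.22 among 781 genes of 500 to 1000 bases, 0.14 among 3159 genes of 2000 to 3000 bases, and 0.36 among 217 genes of more than 10000 bases. The 9 apolipoprotein mRNAs run from 519 to 13913 bases, so each was also set against the 200 tested genes nearest in length, 100 on each side. This difference does not change with the scaling, because a scaling shifts a gene and its neighbours in length alike.

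**Figure D2:**
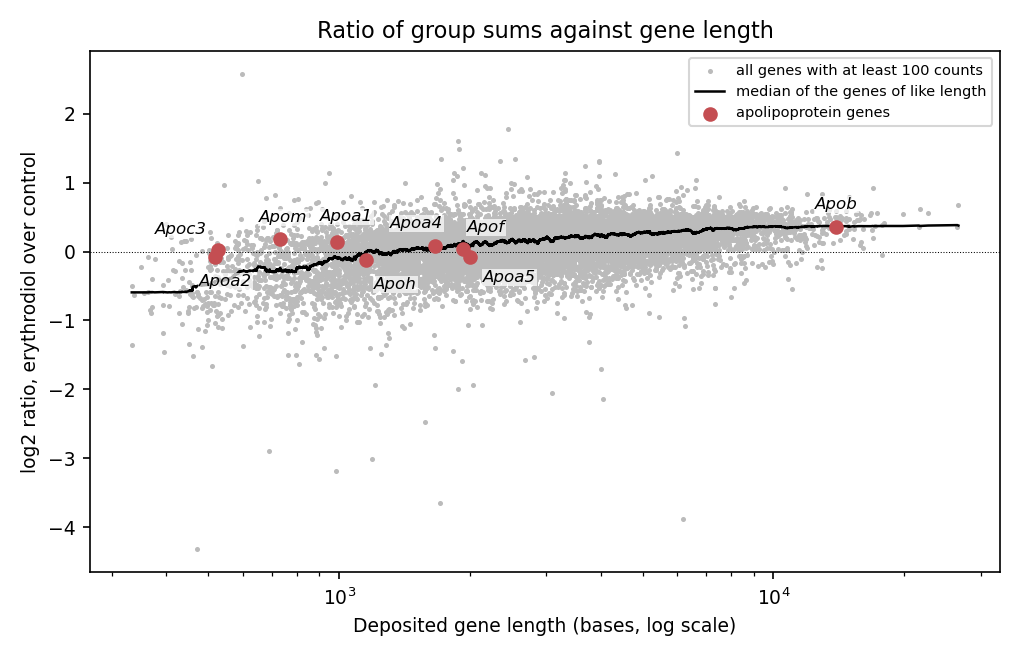
The log2 ratio of erythrodiol to control against deposited gene length in bases (log axis), for all 13291 genes tested (grey), with the running median of genes of like length (line) and the 9 apolipoprotein genes (red). The line climbs from -0.43 at the length of Apoa2 to 0.37 at that of Apob. Apob lies near it at 0.35, and the 4 apolipoprotein genes under 1000 bases lie above it.

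Against genes of like length, 3 of the 9 genes, Apoa2, Apoc3 and Apom, were at least 1.2-fold higher and 0 were at least 1.2-fold lower. Over all genes tested these shares were 9.54% and 17.6%. These 3 genes are short, and the ratios of short genes spread more widely. The central 50% of genes of like length ran from -0.75 to -0.10 for Apoa2, -0.69 to -0.08 for Apoc3 and -0.58 to -0.01 for Apom. For Apob it ran from 0.24 to 0.49. The shares over all lengths are therefore not those of short genes. Of the genes of like length, 77.0% lay below Apoa2, 80.5% below Apoc3 and 87.5% below Apom. All 4 of the 9 genes under 1000 bases, Apoa1, Apoa2, Apoc3 and Apom, lay above the median of genes of like length, by 0.23 to 0.44 on the log2 scale. All 5 of 1000 bases or more lay below it, by -0.16 to -0.00, but Apob and Apoa4 lay above it with some other sets of genes of like length. This split by length was noticed after the values were seen. Each of the 9 lay within the central 95% of its genes of like length, 5 lay within the central 50%, and the 4 short ones lay above that central 50%. The log2 ratios of the 9 genes had an SD over genes of 0.15, and the medians of their genes of like length one of 0.27.

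**Figure D3:**
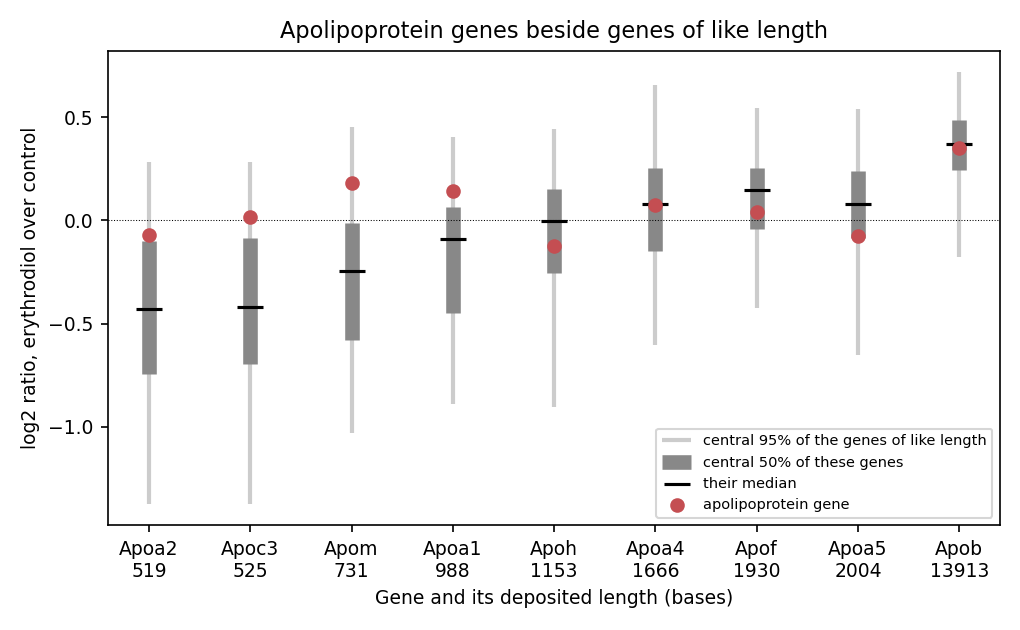
The log2 ratio of each apolipoprotein gene (red), ordered by deposited length in bases, beside the median (black), central 50% (dark) and central 95% (light) of its genes of like length. Apoa2, Apoc3, Apom and Apoa1 lie above the dark bars, and the other 5 genes lie within theirs. Bars show the spread over genes and are not replicate error.

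Among the HDL genes, Apoa1 encodes the protein that accepts cholesterol from cells and activates the enzyme LCAT. It lies on chromosome 9 from base 46228630 to 46230469 of GRCm38.p6, and its counts were 805494 for control and 900990 for erythrodiol. Its log2 ratio of 0.14 (95% counting interval 0.14 to 0.15) was a 1.10-fold higher value, and it went below 0, to -0.03, at the lowest of the alternative scalings. Genes of like length had a median of -0.09, and 81.5% of them lay below Apoa1.

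Apoa2, on chromosome 1 from 171221564 to 171226379, encodes the other main HDL protein. Its counts were 622779 for control and 601177 for erythrodiol, which is 0.951-fold, with a log2 ratio of -0.07, which went above 0 only under totals per length. Because its genes of like length had a median of -0.43, the difference from them was 0.36, and 77.0% of them lay below it. The sign of the comparison for Apoa2 therefore differed between the plain ratio and the ratio against genes of like length.

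Apom, on chromosome 17 from 35128997 to 35131801, encodes the HDL protein that carries sphingosine 1-phosphate. It was the least abundant of the 9, with counts of 13465 for control and 15478 for erythrodiol. Its log2 ratio was 0.18 (95% counting interval 0.15 to 0.21), and with a difference of 0.42 it lay above 87.5% of its genes of like length, the highest share of the 9. Apof, on chromosome 10 from 128268699 to 128271250, encodes a protein known in humans as an inhibitor of cholesteryl ester transfer. It had 56144 and 58544 counts, a log2 ratio of 0.04 that lay below 0 under 5 of the alternatives, and a difference from genes of like length of -0.11.

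Apob lies on chromosome 12 from 7977629 to 8016839 and had the highest ratio of the 9. The sums were 682836 counts for control and 884465 for erythrodiol, which is 1.28-fold higher, with a log2 ratio of 0.35 (95% counting interval 0.35 to 0.36). Its ratio lay between 0.19 and 0.50 over the alternative scalings. For this very long mRNA only 147 genes of like length existed, of 10929 to 26655 bases, and their median was 0.37. Apob thus differed from them by -0.02, and 44.2% of them lay below it. The one ratio of the 9 past 1.2-fold was thus close to the median of genes of its length.

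Apoc3, on chromosome 9 from 46233050 to 46235636, encodes an inhibitor of lipoprotein lipase and of the uptake of remnant particles. Control livers gave 106653 counts and erythrodiol livers 109650. Its log2 ratio was 0.02, below 0 under 5 of the alternatives, and its difference from genes of like length, 0.44, was the largest of the 9. Apoa5, on chromosome 9 from 46268608 to 46271921, encodes an activator of triglyceride clearance that is made in the liver. It had 150256 and 144723 counts, a log2 ratio of -0.08, and a difference of -0.16, the lowest of the 9. Apoc3 and Apoa5 lay on opposite sides of their genes of like length, as the short and the long ones of the 9 genes did. Apoc3 had 80.5% of these genes below it and Apoa5 27.0%.

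Apoa4, on chromosome 9 from 46240844 to 46243458, encodes a protein of chylomicrons and HDL that is made in the intestine and, in mice, also in the liver. The group sums were 65968 and 70542 counts. Its log2 ratio was 0.08, below 0 under 5 of the alternatives, and it lay at the middle of its genes of like length, with a difference of -0.00 and 49.0% of them below it. Exons of Apoa4 overlap Gm10680 and Gm47528, and those of Apoa5 overlap Gm47544, all gene models of GENCODE M21 on the opposite strand. The sources used here do not say that counting used strand, so reads of these pairs cannot be told apart. Apoh, on chromosome 11 from 108395297 to 108414396, encodes beta-2-glycoprotein I, an abundant plasma protein that binds phospholipid. With 232258 and 215958 counts it had the lowest log2 ratio of the 9, -0.13, and a difference from genes of like length of -0.12.

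Apoa1, Apoc3, Apoa4 and Apoa5 lie side by side within 43.3 kb of chromosome 9, from base 46228630 to 46271921. Their log2 ratios ran from -0.08 to 0.14. The tested genes on either side had higher ratios, 0.55 for Sik3, a kinase gene, 0.52 for Zpr1 and 0.65 for Bud13. Against genes of like length these neighbours differed by 0.24, 0.32 and 0.54. The 4 apolipoprotein genes had differences of 0.23 for Apoa1, 0.44 for Apoc3, -0.00 for Apoa4 and -0.16 for Apoa5, and so did not share 1 direction.

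**Figure D4:**
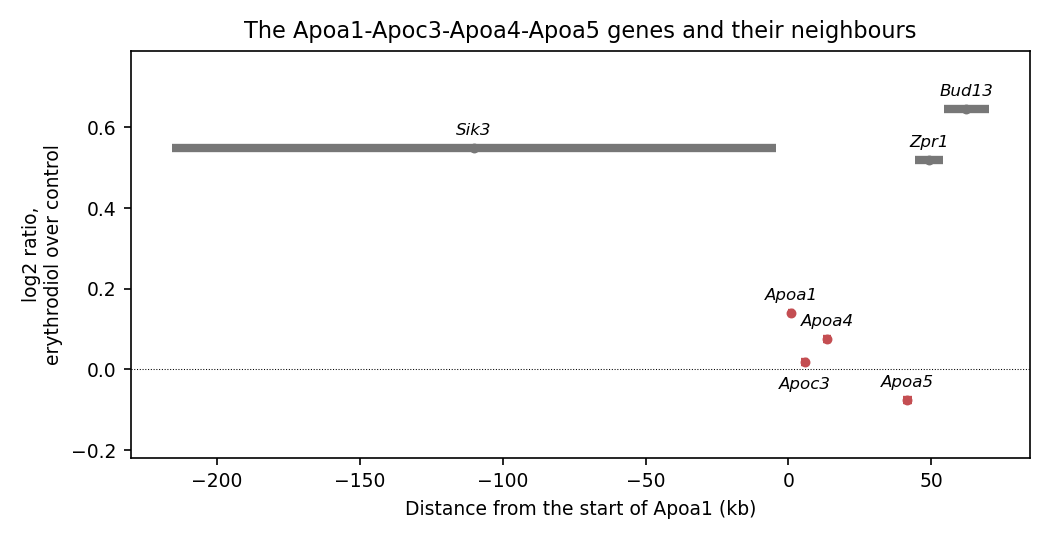
The log2 ratio of erythrodiol to control of each tested gene near the group of apolipoprotein genes on chromosome 9, against distance in kb from the start of Apoa1. The bars span each gene. The 4 apolipoprotein genes (red) lie between -0.08 and 0.14, and the neighbours Sik3, Zpr1 and Bud13 (grey) lie between 0.52 and 0.65.

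The authors' assembly over all libraries added new coding transcripts for Apoa2 and Apoa5, and none for the other 7 genes. These transcripts have no value per group. The new Apoa5 transcript has 4 exons and 2390 bases. Its first exon, in capitals in the Apoa5 sequence above, spans 81 bases from 46268400 to 46268480 of chromosome 9 and begins 208 bases before the first RefSeq start. No GENCODE exon overlaps it. The letters gt follow it directly, as at the start of most introns. The other 3 exons match GENCODE exons, and the coding part begins in the first of these.

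The 2 new Apoa2 transcripts are 553 and 556 bases long. They differ by 3 bases at the start of exon 2, at 171225287 in the shorter and 171225284 in the longer, and GENCODE holds both starts. The 30 bases at chr1:171225268-171225297 are shown because they hold both splice sites, with the 3 differing bases in capitals.
Apoa2 exon 2: tgttctttctcaccagCAGcactgttccta
Among the 16 filtered alternative splicing events deposited for the comparison of the groups, 0 lay in the 9 genes.

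**Figure D5:**
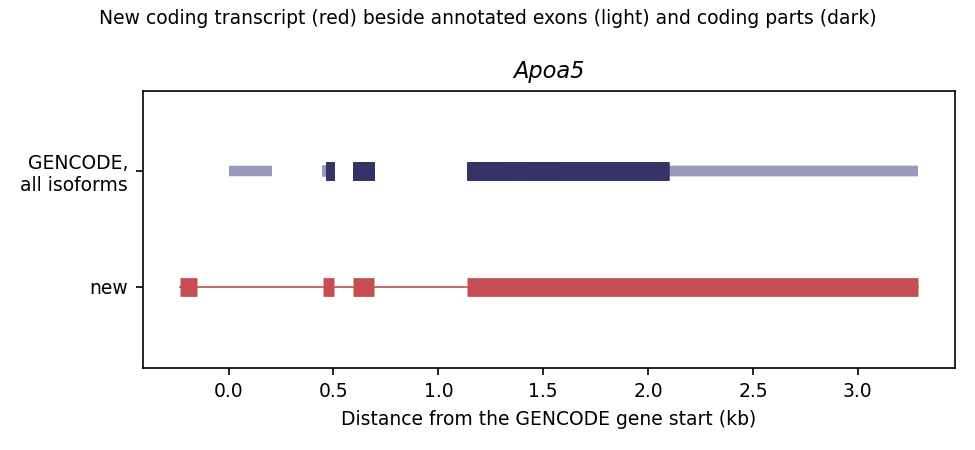
Exons of the new coding transcript of Apoa5 in red, beside all GENCODE exons (light) and coding parts (dark), by distance in kb from the GENCODE gene start. The first exon of the new transcript lies before the annotated start, and the other 3 lie on annotated exons.

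Other genes of lipoprotein metabolism were taken from lists and counted at the same 1.2-fold limit of the log2 ratio, where 33.7% of all genes tested were higher and 11.4% lower. They were also counted by the difference from genes of like length, where these shares were 9.54% and 17.6%. Of 8 genes of VLDL assembly and Apob mRNA editing, 4 were higher and 1 lower, and the median was 0.30. The higher ones were Mttp, the transfer protein that loads lipid onto APOB, at 0.35, Tm6sf2 at 0.34, Sort1 at 0.45, and A1cf, a partner of the Apob editing enzyme, at 0.53. Sar1b, which drives the export of lipoprotein from the endoplasmic reticulum, was at -0.55. When set against genes of like length, only Tm6sf2 was higher, by 0.34, and only Sar1b lower, by -0.53, with a median difference of 0.12. Mttp differed from such genes by 0.11, Sort1 by 0.14 and A1cf by 0.25.

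Of 13 genes of HDL assembly and remodelling, 3 were higher and 3 lower, with a median of 0.09. Lcat was at 0.40, Scarb1 at 0.38 and the endothelial lipase gene Lipg at 0.87. Saa1 and Saa2, acute phase proteins that travel on HDL, were at -1.23 and -1.10, and their near-identical sequences make the split of reads between them uncertain. Pon1, an HDL esterase gene, was at -0.41. The sign of the median turned against genes of like length, to -0.14, with 2 genes higher, Lcat and Lipg, and 4 lower, Saa1, Saa2, Pon1 and Abcg1. Of 6 genes of triglyceride lipolysis, 0 were higher and 1 lower, Angptl8 at -0.30, with a median of -0.01. The median difference from genes of like length was -0.05, with 0 higher and 0 lower.

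The 4 genes of the Apoe cluster, Apoe, Apoc1, Apoc2 and Apoc4, held 0 genes past 1.2-fold in either direction, with a median of -0.10. The sign of this median also turned against genes of like length, to 0.26, and Apoc1, an inhibitor of lipoprotein uptake, was higher by 0.72, more than any of the 9 genes. Of 13 other genes with apolipoprotein names, 9 were tested, with 0 higher and 2 lower, Apool at -0.48 and Apol10b at -0.69, and a median of -0.12. By the difference from genes of like length, 0 were higher and 4 lower, Apool, Apol10b, Apol7c and Apobr, with a median difference of -0.10. Of 22 regulators of apolipoprotein transcription, 13 were higher and 0 lower, with a median of 0.34. Among those with the highest ratios were Mlxipl at 0.60, Foxo1 at 0.52, Ppara and Foxa1 at 0.51, Ppargc1a at 0.48, Srebf2 at 0.47, Nr2f2 at 0.41, and Nr5a2 and Rora at 0.38. Against genes of like length, however, only Mlxipl and Foxa1 of the 22 were higher and only Cebpa lower, and the median difference was 0.12. Hnf4a, a central hepatocyte factor, had a log2 ratio of 0.21 and a difference of -0.03. Of 15 other abundant plasma protein genes of the hepatocyte, 2 were higher, Rbp4 at 0.28 and Fetub at 0.41, and 1 was lower, Hpx at -0.67, with a median of 0.16. The median difference from genes of like length was 0.01, with 2 genes higher, Rbp4 and Fetub, and 2 lower, Hpx and Fgg.

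Markers of other cells of the liver were counted in the same way, beside the same shares over all genes tested. All 5 Kupffer cell markers were at least 1.2-fold lower with erythrodiol, and their summed level was 822 CPM in the control and 507 with erythrodiol. Of 5 bile duct markers 4 were lower, at 116 and 79.1 CPM, and of 5 blood markers 4 were lower, at 1264 and 929 CPM. Of 5 stellate cell markers 0 passed 1.2-fold, at 439 and 423 CPM, and of 5 sinusoidal endothelial markers 1 was higher and 0 lower, at 148 and 154 CPM. Against genes of like length, 5 of 5 Kupffer cell, 5 of 5 bile duct, 2 of 5 blood, 2 of 5 stellate cell and 0 of 5 sinusoidal endothelial markers were lower, and 0 of any of these were higher. Their part in the ratios of the apolipoprotein genes was not tested.

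The intestine and the kidney also make some of the 9 mRNAs. Of 7 small intestine markers 6 were in the table, and only Fabp2 reached the count minimum, with 12791 and 7834 counts for control and erythrodiol. Vil1, a marker of enterocytes and other epithelia, had 43 and 31 counts. The other 4 were near 0, with 0 or 1 count for Sis, at most 1 for Alpi, at most 2 for Lct and at most 6 for Cdh17 in either group. Of 5 kidney markers 4 were in the table, and only Lrp2 reached the minimum, with 165 and 244 counts. Umod, Slc34a1 and Slc12a1 had at most 1 count in either group.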

How the data were processed

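Liver RNA of 7 control and 7 erythrodiol libraries was sequenced by the authors on the BGISEQ-500 platform with paired reads of 100 bases. The labels gave each library its group and replicate number. Per library, the authors deposited the counts of clean reads, with mapping rates in percent. For genes, the authors deposited 1 expected count per group, made with Bowtie2 and RSEM and not normalized, with a gene length. The authors' columns of log2 ratio, p-value and q-value from a comparison named for DEGseq were not used, nor were totals of SNPs and splicing events.

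The log2 ratio compared counts scaled by group totals of 122889032 and 124686047, without a pseudocount. Exact 95% counting intervals were conditional on the sum of both groups. Genes with at least 100 counts in both groups together were tested against limits of 1.2-fold and 2-fold. Levels were counts per 1000 bases, scaled to a sum of 1000000. With 1 value per gene and group, no test with replicate error was possible, and no test across genes was made. Counting precision was high, with the widest interval of the 9 genes 0.067 wide on the log2 scale.

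The genes and all lists were chosen with earlier results of these data known. Every one of the 9 genes was named, and of each list given, cell type markers aside, the genes past 1.2-fold by log2 ratio, up to 10. A list of receptors, 1 regulator and the last exon of the new Apoa2 transcripts are not reported here. Hnf4a, Apoe, the neighbours on chromosome 9 and the markers near 0 were named beside these. So were genes of the lists given that were past 1.2-fold against genes of like length, cell type markers aside. Alternatives were 5 scalings of the ratio beside clean reads and a pseudocount of 1, other count minimums, other numbers of genes of like length, and a shorter effective length. Totals per length were added after seeing the data. edgeR 4.0.16 in R 4.3.3 gave TMM factors on rounded sums only. Ratios and intervals were computed in Python 3.11.15 with pandas 2.3.3, numpy 2.4.6 and scipy 1.17.1, and figures drawn with matplotlib 3.10.9. The computation of ratios was tested on simulated data. Annotation was RefSeq of GRCm38.p6 and GENCODE M21.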

Additional observations from a re-analysis of the deposited data

Results flagged for a closer look

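Control replicate 3 lay far from the other 6 control libraries in its shares of reads mapped to genes and to the genome. Of its clean reads 64.3% mapped to genes, against 74.4% to 81.4% in the other 6, and 76.7% mapped to the genome, against 92.0% to 94.6%. In each measure its gap to the nearest library was large for the range of the group, by a limit that chance passes in about 5% of groups. The gap in reads mapped to genes passed that limit only narrowly. The limit was applied to every read and mapping measure in both groups, and no other library passed it. Its reads form part of every control count of the 9 apolipoprotein genes, and their part in the ratios was not tested. By reads mapped to a unique place of the genome it was not alone. Control replicates 1, 2 and 4 had 55.3%, 62.6% and 56.2%, also below the 64.0% to 68.0% of the erythrodiol libraries. The part of these libraries in the ratios was not tested either.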

How the results depend on the processing

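The median log2 ratio of the 9 genes, 0.04 under the scaling by totals, was -0.12 with all genes centred on their median, -0.13 with the upper quartile, -0.068 with totals without the 100 genes of highest count, -0.12 with TMM, -0.11 with the median of ratios, and 0.19 with totals per length. These settings moved the median of all genes by -0.16, -0.17, -0.11, -0.16, -0.15 and 0.15. The count of genes at least 1.2-fold higher, 1 under the scaling by totals, was 0 under the first 5 and 3 under totals per length and under the difference from genes of like length. The count at least 1.2-fold lower was 1, Apoh, instead of 0 under the median, upper quartile, TMM and median of ratios. Among all genes past 1.2-fold, 74.8% were higher under the scaling by totals and 35.1%, 33.7%, 50.9%, 36.7%, 39.8% and 90.0% under these 6 settings. Clean reads and a pseudocount of 1 left all these counts of the 9 genes as they were. With other sets of genes of like length, Apob differed from them by -0.06 to 0.02 and Apoa4 by -0.03 to 0.00, so that their sign was not fixed, and the other 7 kept theirs. Among the 2000 most abundant genes, the genes at least 1.2-fold higher than those of like length were 4 instead of 3, with Apoa1 added at 0.35. With a minimum of 10 counts, 34.0% of genes were at least 1.2-fold higher and 14.6% lower, and with none 34.0% and 15.9%. The order of the levels was the same with 100 bases taken off each length. No paired analysis was possible because gene values were group sums without values per library, and for the same reason no library could be left out. Depth limits none of the 9 genes, the least abundant of which had 13465 counts in the control.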
